A study of Mus musculus with 6 samples.

Results

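Interferon-stimulated effector genes encode the proteins that act directly on viruses, other intracellular microbes and the RNA or protein machinery they use. A list of 44 such mouse genes, chosen by name with earlier results of these data known and so no independent evidence of direction, was followed here in bone marrow-derived macrophages, and all 44 were found among the 24752 genes of the deposited expression table. The cells were grown from the marrow of mice aged 8 to 10 weeks for 7 days in M-CSF at 10 ng/ml, a growth factor that turns marrow precursors into macrophages. The 3 groups, each with 2 libraries lettered B and C, were called control, LPS and Glul_LPS. LPS, the lipopolysaccharide of Gram-negative bacteria, was given at 100 ng/ml for 3 h to the LPS and Glul_LPS groups. Before that, cells had received a lentiviral vector for 36 h, either a control vector or one that overexpresses Glul, the gene of glutamine synthetase, and the Glul_LPS libraries come from the latter. The labels do not say in so many words that the control and LPS libraries carried the control vector, and they give neither strain, sex nor the promoter of the vector. Nothing in them says whether letters B and C were separate mice or cultures, so each p-value is set against the spread of library pairs that may differ by technical causes alone.

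As background, LPS binds TLR4, and the TRIF branch of that receptor activates the transcription factor IRF3, which turns on the interferon beta gene and some effector genes directly. Secreted interferon beta then binds its receptor, the kinases JAK1 and TYK2 phosphorylate STAT proteins, and these join IRF9 in a complex that binds interferon-stimulated response elements (ISREs) in promoters. Genes of this program restrict viral entry, translation, replication and budding in macrophages, and the brakes USP18 and SOCS1 limit it.

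The libraries held 15649764 to 18691669 fragments assigned to genes, and in logarithmic values the replicates correlated across genes at r = 0.9935 to 0.9943. Values are FPKM, fragments scaled to exon length and library size, as deposited by the authors. Fold changes below are differences of log2(FPKM + 1) and understate the change of low genes. They were fitted with limma over the 10962 genes that reached 1 FPKM in at least 2 libraries, with Benjamini-Hochberg adjustment over all of them and a threshold of 0.05. Of those genes, the median lay −0.50 log2 units from control in LPS, 0.02 from LPS in Glul_LPS and −0.48 from control in Glul_LPS. The share of calls that were higher in LPS was 20.1% as deposited, 39.7% after quantile normalization and 51.8% after centring on the median gene. Macrophage markers dominated, with summed levels of 15066 to 21109 FPKM, while neutrophil markers summed to 6.9 to 10.5 FPKM and B cell markers to at most 0.22. Glul itself had 140.2 and 140.3 FPKM in control, 30.6 and 33.4 in LPS, and 37.2 and 37.7 in the libraries labelled Glul_LPS. Glul was thus lower after LPS, and its difference of 0.22 log2 units between Glul_LPS and LPS did not pass the threshold (adjusted p = 0.122), so overexpression was not evident at this gene in the deposited values. Whether transcripts of the vector are counted at the mouse gene is not known.

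LPS raised every member that could be tested, by ratios of mean FPKM that ran from 1.14 for Lgals3bp to 188 for Rsad2 with a median of 8.83. All 43 tested members rose in LPS against control and no member fell, where 17.1% of all genes tested rose and 68% fell. At an unadjusted p under 0.05 the members' counts were the same, against 17.3% and 68.6% of all genes. By adjusted p in limma's voom, all 38 members tested rose and none fell, against 17.4% and 67.5% of all genes. The members' median log2 change was 2.82, against −0.50 for all genes, with a lower quartile of 1.62 and an upper quartile of 4.66. Relative to the median gene, again 43 rose, with a median of 3.34 and a range from 0.71 to 7.98. On that scale 3788 of all 10962 genes rose and 3530 fell. In these bulk samples, more cells with the transcripts and more RNA per cell cannot be told apart. As a share of all FPKM, the 44 genes made up 0.491% and 0.505% in the control libraries, 3.92% and 4.39% in LPS, and 3.66% and 3.71% in Glul_LPS. The untested member was Cmtr1, which methylates the ribose next to the RNA cap. It stayed below the filter at 0.132 and 0.170 FPKM in control, 0.323 and 0.460 in LPS, and 0.227 and 0.395 in Glul_LPS. Its counting is uncertain, since 71.8% of its 50-base stretches occur in other genes too and 47.2% of its exon bases are overlapped on the other strand by Ccdc167.

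**Figure D1:**
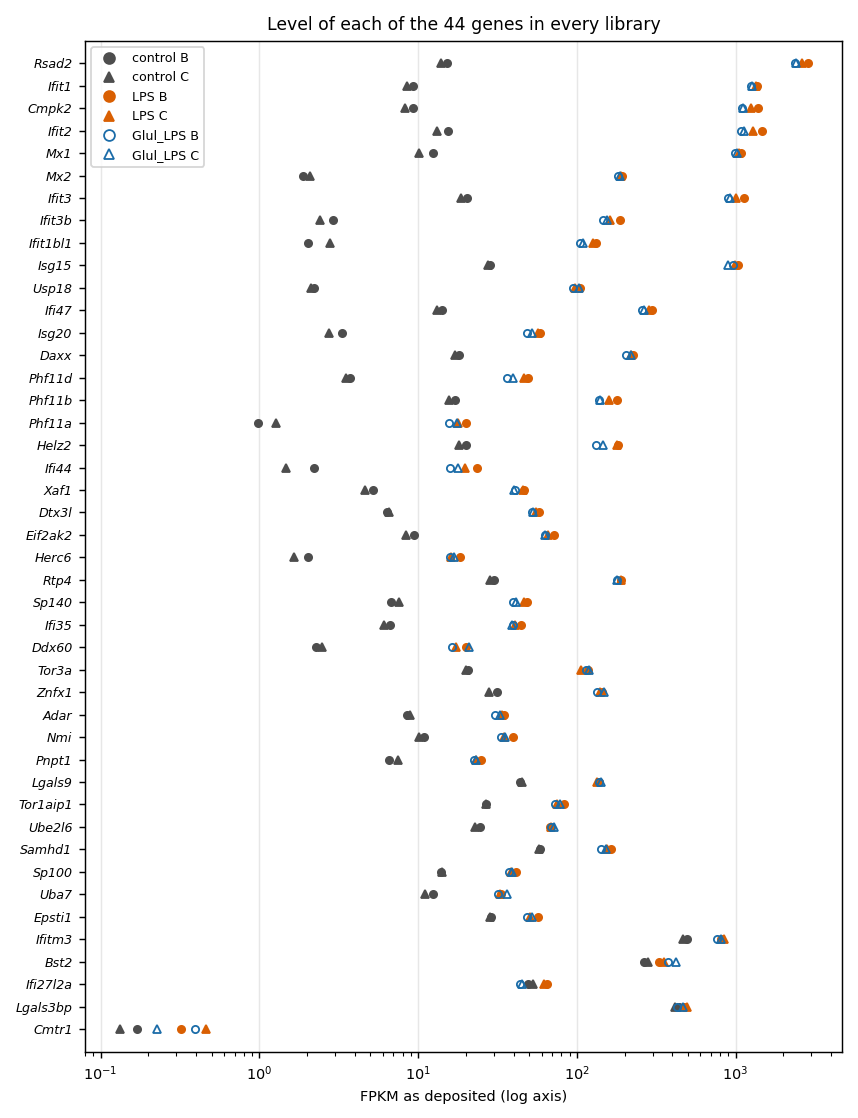
FPKM of each of the 44 genes (rows, ordered by the change with LPS) in the 6 libraries on a log axis, with circles for letter B and triangles for letter C. Control values lie far to the left of both LPS-treated groups for the upper rows, such as Rsad2 with a mean of 14.6 in control and 2741 in LPS, and close to them for Lgals3bp, with 425 and 485.

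The changes did not spread evenly. Of the 43, 12 rose by at least 4 log2 units, a size that 0.648% of all tested genes reached with a call, and 6 of these rose by at least 6. Another 17 rose by 2 to 4 units, 9 by 1 to 2 units and 5 by less than 1 unit. Starting levels differed as well. Control means ran from 1.13 FPKM for Phf11a to 484 for Ifitm3 with a median of 11.7, and LPS means from 17.2 for Herc6 to 2741 for Rsad2 with a median of 112. No member reached 1000 FPKM in control, and 7 did in LPS (Rsad2, Ifit2, Ifit1, Cmpk2, Ifit3, Mx1 and Isg15). Members whose fragments could be recovered had a median of 582.5 fragments per library in control and 5007 in LPS, with a lowest value of 25 for Phf11a in control. PCR copies were not marked by molecular identifiers, so these counts describe counting error only.

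**Figure D2:**
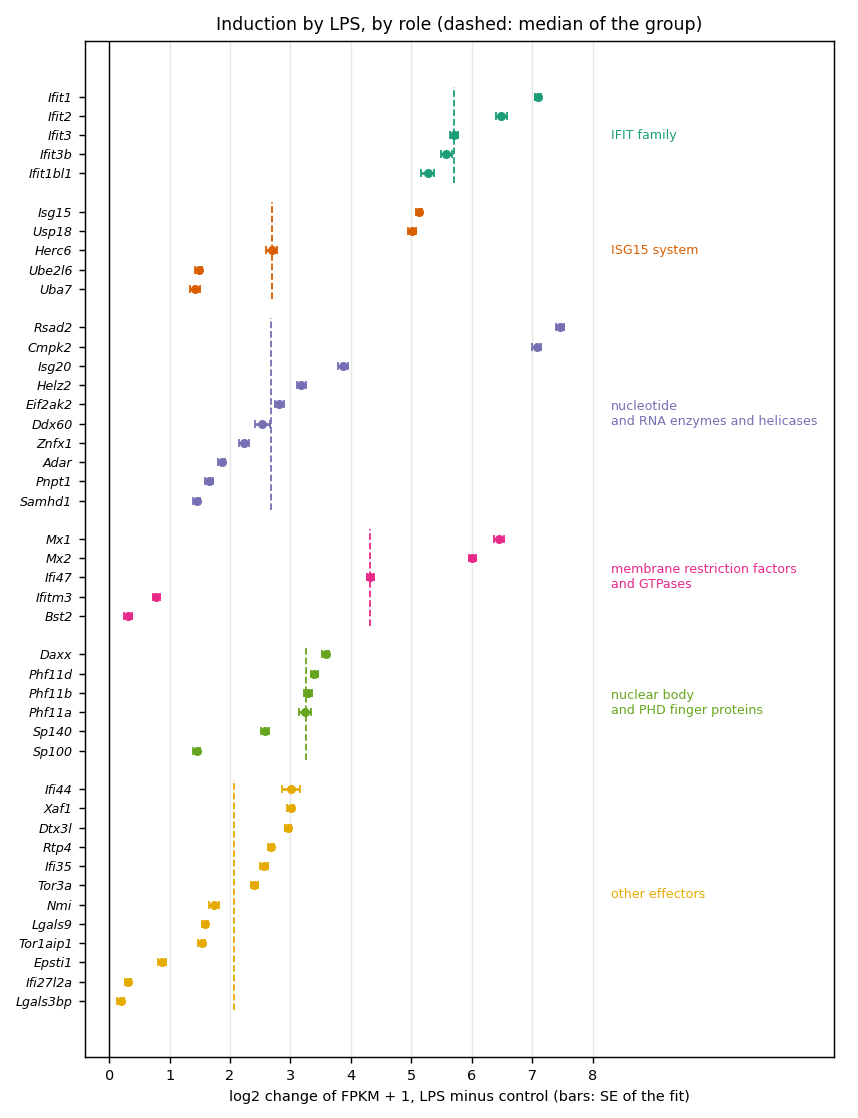
Log2 change of FPKM + 1 from control to LPS for the 43 tested genes, grouped by role, with bars for the standard error of the fit and a dashed line at each group's median. The IFIT family lies between 5.27 and 7.10, while the membrane restriction factors and GTPases span 0.31 to 6.45.

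IFIT proteins bind viral or foreign RNA ends and block translation from them, and their 5 genes lie side by side on chromosome 19. All 5 rose, with a median of 5.71, and none of them by less than 5.27. Ifit1 (chr19:34640871-34650009, plus strand, GRCm38 as are the other gene positions), which recognises RNA lacking cap methylation, had 9.27 and 8.54 FPKM in control, 1369 and 1339 in LPS, and 1253 and 1270 in Glul_LPS. Both LPS-treated groups were far above control without overlap, and the change with LPS was 7.10 ± 0.05 (SE, adjusted p = 1.23e-08). Ifit2, a partner of the other family members, had 15.5 and 13.2 FPKM in control, 1470 and 1292 in LPS, and 1084 and 1136 in Glul_LPS. Its control libraries were the lowest and its LPS libraries the highest of the 6, and the change with LPS was 6.49 ± 0.09 (adjusted p = 9.44e-08). Ifit3, which stabilises Ifit1 complexes in human cells, rose by 5.71, its near copy Ifit3b by 5.58 and Ifit1bl1 by 5.27. Since 51.2% of the 50-base stretches of Ifit3 and 45.0% of those of Ifit3b occur in another gene, the split between this pair is uncertain.

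ISG15 is a ubiquitin-like protein that is linked to other proteins by an activating enzyme (Uba7), a conjugating enzyme (Ube2l6) and, in mice, the ligase Herc6, and that Usp18 removes. The modifier and its remover rose most. Isg15 (chr4:156199424-156200818, minus strand) had 28.4 and 27.6 FPKM in control, 1029 and 998 in LPS, and 958 and 901 in Glul_LPS. LPS-treated libraries were all above control, with a change of 5.13 ± 0.05 in LPS (adjusted p = 2.83e-08). Usp18, which also holds back signalling at the interferon receptor, had 2.21 and 2.13 FPKM in control, 105 and 96.7 in LPS, and 94.2 and 103 in Glul_LPS. It rose by 5.01 ± 0.07 with LPS (adjusted p = 8.00e-08), and the LPS and Glul_LPS libraries overlapped.

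The 3 conjugating genes of that system rose by less. Herc6 had 2.02 and 1.65 FPKM in control, 18.3 and 16.2 in LPS, and 15.9 and 16.7 in Glul_LPS. Its change with LPS was 2.69 ± 0.09 (adjusted p = 1.60e-06). Ube2l6 had 24.7 and 23.0 FPKM in control, 67.6 and 69.1 in LPS, and 68.3 and 72.3 in Glul_LPS, a change of 1.48 ± 0.06 with LPS (adjusted p = 2.49e-06). Uba7 had 12.42 and 11.02 FPKM in control, 33.3 and 32.8 in LPS, and 31.9 and 36.6 in Glul_LPS, a change of 1.42 ± 0.08 with LPS (adjusted p = 1.36e-05). Each of the 3 was higher in all 4 LPS-treated libraries than in either control library, and its LPS and Glul_LPS libraries overlapped. In control the mean level of Ube2l6 (23.8 FPKM) was close to that of Isg15 (28.0 FPKM), while in LPS it was 68.4 against 1013.

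Among the enzymes that act on nucleotides and RNA, all 10 tested genes rose, with a median of 2.68. The neighbours Rsad2 and Cmpk2, which lie 12.8 kb apart on chromosome 12, stood at the top. Rsad2 (chr12:26442746-26456452, minus strand) encodes viperin, which makes a chain-terminating nucleotide from CTP, and had 15.2 and 13.9 FPKM in control, 2859 and 2623 in LPS, and 2379 and 2410 in Glul_LPS. Control was far below both treated groups, no groups overlapped, and the change of 7.46 ± 0.06 with LPS was the highest of the 43 (adjusted p = 1.81e-08). Cmpk2, a mitochondrial nucleotide kinase, had 9.36 and 8.29 FPKM in control, 1395 and 1256 in LPS, and 1093 and 1111 in Glul_LPS. It was highest in LPS and lowest in control without overlap, and rose by 7.08 ± 0.07 with LPS (adjusted p = 3.01e-08). The next gene of the group was well below them: Isg20, an RNA exonuclease, rose by 3.87. Helz2, a helicase, rose by 3.18, the kinase Eif2ak2, which halts translation on sensing RNA duplexes, by 2.82, the helicase Ddx60 by 2.54 and the helicase Znfx1 by 2.23. Smaller changes were those of Adar, which edits adenosine in RNA duplexes (1.86), the mitochondrial exonuclease Pnpt1 (1.65) and Samhd1, which breaks down deoxynucleotides (1.45). Reads of Adar may be mixed with those of Chrnb2, which overlaps 16.8% of its exon bases on the other strand. Members of other role groups are overlapped too. On the other strand this covers 26.5% of the exon bases of Sp140, 16.8% of Ifi35 and 12.9% of Tor1aip1. On the same strand it covers 13.9% of Rtp4 and 13.7% of Herc6.

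Membrane restriction factors and GTPases all rose, with a median of 4.32 and the widest range of the 6 role groups. Mx1 (chr16:97447035-97462907, minus strand), the gene of an antiviral GTPase, had 12.3 and 10.1 FPKM in control, 1085 and 1048 in LPS, and 987 and 1020 in Glul_LPS. Control was far below both treated groups, which lay close to each other without overlap, and the change with LPS was 6.45 ± 0.09 (adjusted p = 8.00e-08). Its neighbour Mx2, 72.4 kb away and annotated as a polymorphic pseudogene in the deposited table, rose by 6.01, and the GTPase Ifi47 by 4.32. Ifitm3, which stops viral fusion at endosomes, already had 498 and 469 FPKM in control, then 811 and 849 in LPS and 762 and 812 in Glul_LPS. Every LPS-treated library was above control, at a change of 0.78 ± 0.06 in LPS (adjusted p = 3.19e-05). Bst2, or tetherin, holds budding virus particles at the cell surface, and had 266 and 282 FPKM in control, 330 and 352 in LPS, and 378 and 421 in Glul_LPS. Its 3 groups did not overlap, with Glul_LPS highest. The change with LPS was 0.31 ± 0.07 (adjusted p = 0.00490), but after quantile normalization it was 0.09 and did not pass (adjusted p = 0.300).

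Nuclear body and PHD finger genes rose in 6 of 6 cases, with a median of 3.26. Daxx, a histone chaperone, rose by 3.58, and the PHD finger genes Phf11d, Phf11b and Phf11a, neighbours on chromosome 14, by 3.40, 3.29 and 3.23. The chromatin reader Sp140 rose by 2.57 and the nuclear body protein Sp100 by 1.45. Counting is uncertain for Sp140, Phf11b and Phf11a, of whose 50-base stretches 57.3%, 47.0% and 35.2% occur in other genes.

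The 12 remaining effectors also all rose, with a median of 2.07 and a range up to 3.01. Ifi44, a cytoplasmic antiviral protein, reached 3.01, Xaf1, an antagonist of the apoptosis inhibitor XIAP, 3.00, and Dtx3l, a ubiquitin ligase, 2.96. Rtp4, which restricts flaviviruses, rose by 2.67, Ifi35 by 2.56, the torsin ATPase Tor3a by 2.40, the Ifi35 partner Nmi by 1.73, the galectin Lgals9 by 1.59 and the torsin activator Tor1aip1 by 1.53. Epsti1, a cytoplasmic interferon-induced protein, had 29.0 and 28.5 FPKM in control, 56.8 and 50.5 in LPS, and 48.9 and 52.0 in Glul_LPS, and rose by 0.87 ± 0.07 with LPS (adjusted p = 4.22e-05). Its control libraries were the lowest, and the LPS and Glul_LPS libraries overlapped.

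The genes at the bottom of the order had control levels well above the members' median. Near the low end of their range, Samhd1 (mean of 57.8 FPKM in control, change 1.45) and Rtp4 (29.1 FPKM, change 2.67) rose by more. Ifitm3, Lgals3bp and Bst2 had the highest control means of the tested members (484, 425 and 274 FPKM) and rose by 0.78, 0.19 and 0.31. Whether the control level bears on the size of the change was not tested. Lgals3bp, a secreted glycoprotein, had 437 and 413 FPKM in control, 476 and 494 in LPS, and 427 and 466 in Glul_LPS. LPS was highest without overlap, while Glul_LPS and control overlapped. Its change of 0.19 ± 0.06 with LPS passed (adjusted p = 0.0227) as deposited but not without control C (adjusted p = 0.118), without LPS C (0.0987), after quantile normalization (0.165) or with no filter on low genes (0.0684). Ifi27l2a (chr12:103442167-103443680, minus strand), a small membrane protein, had 49.2 and 52.6 FPKM in control and 64.6 and 62.4 in LPS, and rose by 0.31 ± 0.05 (adjusted p = 0.00127).

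Promoters are shown for members at both ends of this range, because ISREs lie in promoters and the members rose together. RefSeq windows from 250 bases before to 50 after the start (GRCm38.p6) were found for 38 members; Usp18, Mx1, Mx2, Rtp4, Ifi27l2a and Tor3a had none in the table used. An ISRE core was searched on both strands as the letters GAAA, then any pair of bases, then GAAA. It was in a window of 13 of the 38 genes (34.2%), against 3.99% of all 27025 genes in the table. The interferon-gamma-activated type of element, TTCNNNGAA, was in 8 (21.1%, against 9.55%), and a kB element, GGGA and TTCC around any pair of bases, in 3 (7.89%, against 1.63%). The windows of Isg15 (chr4:156200769-156201068, minus strand), Ifit1 (chr19:34640639-34640938, plus strand) and Rsad2 (chr12:26456403-26456702, minus strand) follow 5′ to 3′, with ISRE cores on either strand in capitals.
Isg15: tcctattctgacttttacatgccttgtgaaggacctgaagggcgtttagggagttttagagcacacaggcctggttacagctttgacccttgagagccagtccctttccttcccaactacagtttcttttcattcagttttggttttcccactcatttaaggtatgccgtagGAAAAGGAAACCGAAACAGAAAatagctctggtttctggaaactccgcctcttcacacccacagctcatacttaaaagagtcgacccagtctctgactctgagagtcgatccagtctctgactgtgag
Ifit1: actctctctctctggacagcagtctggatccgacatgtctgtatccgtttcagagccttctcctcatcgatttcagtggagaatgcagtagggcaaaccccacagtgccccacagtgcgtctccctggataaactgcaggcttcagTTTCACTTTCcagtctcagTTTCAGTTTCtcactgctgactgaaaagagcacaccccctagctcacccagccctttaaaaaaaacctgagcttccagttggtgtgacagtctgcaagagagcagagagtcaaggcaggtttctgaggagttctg
Rsad2: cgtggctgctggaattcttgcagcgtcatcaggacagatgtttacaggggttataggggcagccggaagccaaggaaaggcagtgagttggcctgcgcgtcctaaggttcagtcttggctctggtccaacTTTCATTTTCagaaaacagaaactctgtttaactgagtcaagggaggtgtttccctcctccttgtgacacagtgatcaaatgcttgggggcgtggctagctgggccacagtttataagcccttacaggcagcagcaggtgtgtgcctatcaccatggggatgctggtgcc
Counting from the RefSeq start, with negative positions before it, the Isg15 cores begin at −78, −72 and −66 and overlap each other. Ifit1 has cores at −104 and −85, and Rsad2 has 1 at −120. A core is also present in the Ifit3 and Ifit3b windows, chosen for print after their values were seen because the pair rose by nearly the same amount. A stretch of 74 bases from each, chr19:34583358-34583431 and chr19:34607754-34607827 on the plus strand, is the same letter for letter, with both cores 34 bases apart.
Ifit3: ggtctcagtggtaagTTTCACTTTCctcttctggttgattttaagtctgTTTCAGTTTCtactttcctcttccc
Ifit3b: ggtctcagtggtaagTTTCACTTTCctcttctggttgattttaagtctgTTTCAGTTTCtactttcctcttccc
With the 2 windows placed so that their first cores coincide, and no gaps allowed, 75% of the 268 bases compared were equal. The windows differ in the length of a run of C and, further on, by a few bases that only the Ifit3 window has. Bases beyond the run are compared out of step. That share therefore understates how alike the windows are.

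A core in the window did not go with a fixed size of change. The 13 genes with a core had a median change with LPS of 3.29 and ran from 0.31 (Bst2) to 7.46 (Rsad2). The 24 tested genes with a window but no core had a median of 2.56 and ran from 0.19 (Lgals3bp) to 7.08 (Cmpk2), and Ifit2, at 6.49, was among them. The windows of Lgals3bp (chr11:118401910-118402209, minus strand) and Epsti1 (chr14:77903989-77904288, plus strand), the genes without a core that rose least, are set beside that of Bst2 (chr8:71537423-71537722, minus strand), the gene with a core that rose least, which was chosen after its value was seen.
Lgals3bp: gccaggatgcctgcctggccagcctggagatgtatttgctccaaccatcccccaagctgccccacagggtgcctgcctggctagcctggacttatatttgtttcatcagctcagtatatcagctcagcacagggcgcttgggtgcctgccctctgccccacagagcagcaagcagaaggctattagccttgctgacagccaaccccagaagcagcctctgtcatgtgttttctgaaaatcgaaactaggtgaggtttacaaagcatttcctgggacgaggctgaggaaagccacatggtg
Epsti1: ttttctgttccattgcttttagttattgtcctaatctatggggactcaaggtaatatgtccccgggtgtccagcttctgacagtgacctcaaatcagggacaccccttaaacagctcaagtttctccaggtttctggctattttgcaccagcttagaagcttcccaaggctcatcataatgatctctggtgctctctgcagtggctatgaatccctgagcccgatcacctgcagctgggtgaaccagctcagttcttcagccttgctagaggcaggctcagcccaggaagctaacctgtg
Bst2: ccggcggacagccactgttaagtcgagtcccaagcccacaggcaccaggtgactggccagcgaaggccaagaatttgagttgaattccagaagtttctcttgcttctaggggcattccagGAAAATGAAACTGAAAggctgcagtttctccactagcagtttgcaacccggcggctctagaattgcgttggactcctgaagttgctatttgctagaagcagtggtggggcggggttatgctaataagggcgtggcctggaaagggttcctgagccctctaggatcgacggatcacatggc
Bst2 has cores at −130 and −124 that overlap each other, and a TTCNNNGAA match at −136 overlaps the former. Matches to different motifs also overlap in Ifitm3 (core and TTCNNNGAA) and Ifit2 (TTCNNNGAA and kB). A match is a description of letters and not a measured binding site, and a window without one says only that these letters are not in it.

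**Figure D3:**
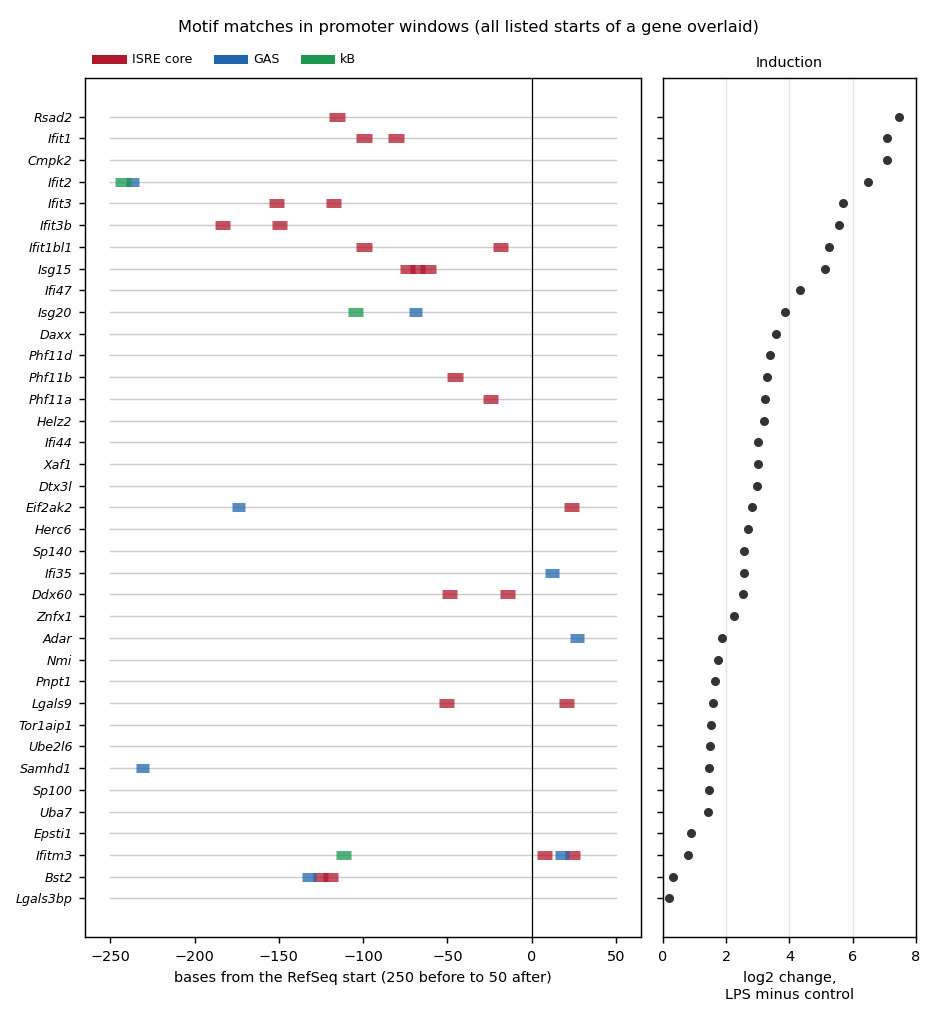
Motif matches in the promoter windows of the members with a window and a fitted change (left, in bases from the RefSeq start, all listed starts of a gene overlaid) beside the log2 change from control to LPS (right). ISRE cores (red) lie upstream of the start in the top rows, Rsad2 and Ifit1, and also in Bst2 near the bottom, while Cmpk2 near the top has no match.

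The next comparison asked whether the effector genes differed when the LPS-treated cells also carried the Glul vector. Only Ifi27l2a passed the threshold, and it fell. The other 42 did not pass, though 38 of the 43 lay below LPS, as did 4845 of all 10962 genes tested. The members' median was −0.11, against 0.02 for all genes tested. Relative to the median gene, 38 of the 43 members and 5902 of the 10962 genes lay below LPS. Among all genes tested, 0.547% rose and 0.556% fell in this comparison. No member rose. At an unadjusted p under 0.05 in limma, 1 member (Bst2) was higher and 13 were lower, against 10.4% and 7.09% of all genes. With limma's voom on recovered fragments, 1 of 38 members (Bst2) was higher and 10 were lower by adjusted p, against 2.91% and 2.81% of all genes; the lower members were Ifi27l2a, Helz2, Ifi44, Phf11d, Ifit2, Phf11b, Cmpk2, Sp140, Ifit3 and Rsad2, at changes of −0.51 to −0.19. Ratios of mean FPKM ran from 0.700 for Ifi27l2a to 1.17 for Bst2, with a median of 0.921, and no member's 95% interval reached beyond a fold of 0.62 (Ifi44) or 1.31 (Bst2).

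**Figure D4:**
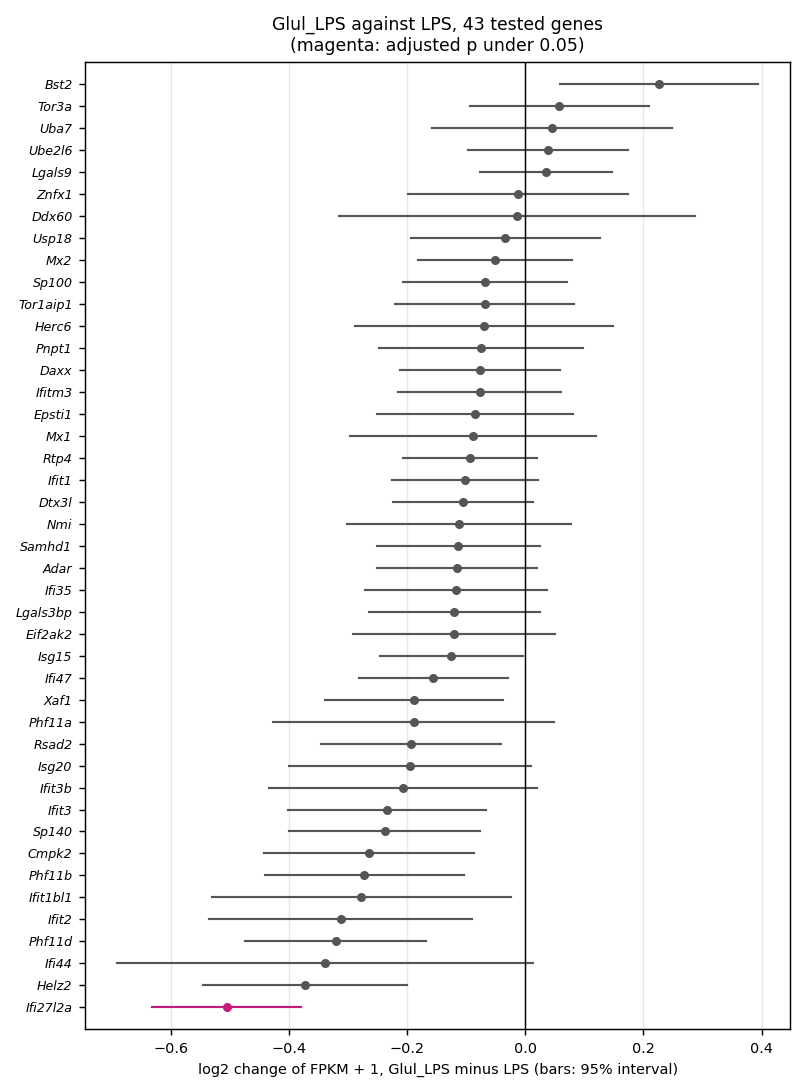
Log2 change of FPKM + 1 from LPS to Glul_LPS for the 43 tested genes, ordered by size, with 95% intervals of the fit. Of the intervals, 29 span 0, 13 lie below it and 1, that of Bst2, lies above. Ifi27l2a, at −0.51, is the gene past the threshold.

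Ifi27l2a, at 64.6 and 62.4 FPKM in LPS, had 44.04 and 44.85 in Glul_LPS, below its control values of 49.2 and 52.6. Glul_LPS was thus the lowest of 3 groups that did not overlap. The fall of 0.51 from LPS had an SE of 0.05, a 95% interval of the fold from 0.646 to 0.769 and an adjusted p of 0.0221. That call was lost with no filter on low genes (adjusted p = 0.0920), with the direction kept. Without LPS B, LPS C, Glul_LPS B or Glul_LPS C the changes were −0.48, −0.53, −0.49 and −0.52. The call was lost in each of these fits too, in which fewer genes of the whole table passed. In fragments, the gene is one of the least covered members, with 482 and 494 in LPS and 347 and 325 in Glul_LPS.

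After Ifi27l2a, the lowest changes were those of Helz2 and Ifi44, and neither passed. Helz2 had 19.97 and 18.03 FPKM in control, 182 and 178 in LPS, and 132 and 146 in Glul_LPS, a change from LPS of −0.37 ± 0.07 (adjusted p = 0.0770). Ifi44 had 2.21 and 1.47 FPKM in control, 23.6 and 19.8 in LPS, and 15.86 and 17.96 in Glul_LPS, a change of −0.34 ± 0.15 (adjusted p = 0.302). In each, Glul_LPS lay below LPS without overlap and far above control. The highest changes were those of Bst2 (0.23 ± 0.07, adjusted p = 0.182, 95% interval of the fold 1.04 to 1.31), Tor3a and Uba7. Tor3a had 20.7 and 20.1 FPKM in control, 118 and 106 in LPS, and 114 and 119 in Glul_LPS, so that the treated groups overlapped, with a change of 0.06 ± 0.06 (adjusted p = 0.692). Uba7 overlapped likewise, with a change of 0.05 ± 0.08 (adjusted p = 0.836).

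By role, the medians from LPS to Glul_LPS were −0.23 for the IFIT family, −0.21 for nuclear body and PHD finger genes, −0.12 for nucleotide and RNA enzymes, −0.11 for the other effectors, −0.08 for membrane factors and GTPases and −0.03 for the ISG15 system. All 5 IFIT genes lay below LPS without overlap, where 19.3% of all tested genes did. Ifit3 and Ifit3b, whose split is uncertain, are among them. The changes ran from −0.31 for Ifit2 to −0.10 for Ifit1 (limma adjusted p = 0.170 and 0.373), although after quantile normalization Ifit1 was at 0.03. Within the ISG15 system, Isg15 itself was without overlap at −0.13 (adjusted p = 0.271), while Usp18 (−0.03, adjusted p = 0.848), Herc6 (−0.07, 0.750) and Ube2l6 (0.04, 0.781) overlapped. The top of the induction order did not pass either: Rsad2 was at −0.19 (adjusted p = 0.202), Cmpk2 at −0.26 (0.155) and Mx1 at −0.09 (0.655). The 12 genes that LPS raised by at least 4 units had a median of −0.17, and the others −0.11. The LPS libraries enter both the split and this change, with opposite sign, so nothing is concluded from the gap.

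Counted without a test, 29 members had both Glul_LPS libraries below both LPS libraries, 1 (Bst2) had both above, and 13 overlapped, where 19.3% of all tested genes were lower without overlap and 27.7% higher. The size depended on the letter compared. Glul_LPS B lay below LPS B for 41 of 43 members, against 42.8% of all tested genes, with a median difference of −0.18. Glul_LPS C lay below LPS C for 30 of 43, against 47.4%, with a median of −0.06. Matching by letter is arbitrary here, since nothing in the labels says that the letters pair the libraries. The libraries themselves also differed within groups: letter B was above letter C for 31 of 43 members in control, 38 of 43 in LPS and 4 of 43 in Glul_LPS, against 48.8%, 47.2% and 51.9% of all tested genes. The summed macrophage markers were also higher in Glul_LPS, at 17577 and 18821 FPKM, than in LPS, at 15066 and 16208, and most of the sum was Lyz2. Of the 7 markers, 5 were higher in Glul_LPS without overlap, Cd68 overlapped and Mertk was lower, at 22.8 and 26.8 FPKM against 29.0 and 28.1. The part of these differences in the lower Glul_LPS values was not tested.

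**Figure D5:**
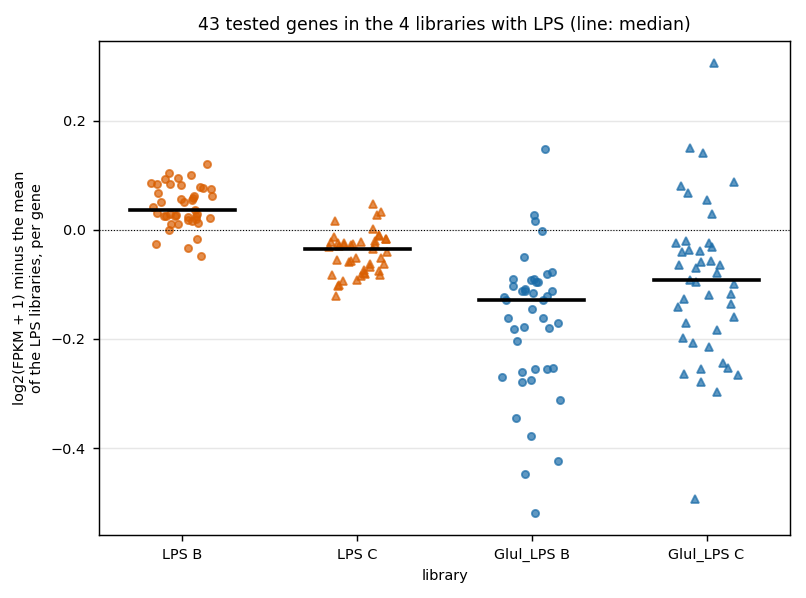
Log2(FPKM + 1) of each tested gene (points) in the 4 LPS-treated libraries, minus that gene's mean over the LPS libraries, with a line at the median of each library. Most points of Glul_LPS B, and to a lesser extent of Glul_LPS C, lie below 0, and the points of LPS B lie mostly above those of LPS C.

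Against control, the Glul_LPS libraries gave nearly the same picture as LPS, and both comparisons share the control libraries. In Glul_LPS, 41 members rose, 1 fell and 1 did not pass, where 16.9% of all tested genes rose and 67.4% fell. The median change was 2.67 from control to Glul_LPS and 2.82 from control to LPS. Rsad2 was at 7.26 in Glul_LPS and 7.46 in LPS, Ifit1 at 7.00 and 7.10, Isg15 at 5.003 and 5.128, and Bst2 at 0.54 and 0.31. The member that did not pass was Lgals3bp, at 0.07 (adjusted p = 0.314), though relative to the median gene it was at 0.56 and passed (adjusted p = 0.000255). On that scale all 43 members rose, where 3751 of all 10962 genes rose and 3471 fell. Ifi27l2a fell by 0.19 as deposited (adjusted p = 0.0125), but relative to the median gene the sign turned, to 0.30 (adjusted p = 0.00300). As deposited, that fall did not pass without control C (adjusted p = 0.0735) or without Glul_LPS B (0.0541). In Glul_LPS, 5 members reached 1000 FPKM, and Ifit3 and Isg15, with means of 910 and 929, lay below that mark.

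The genes that drive the program were taken as 5 lists of well known pathway genes, also chosen with earlier results of these data known. Their counts with LPS stand against 17.1% of all genes that rose and 68% that fell. Of the interferons and their receptors, 5 of 10 listed genes could be tested, and 3 rose and 2 fell with LPS. Ifnb1, the interferon beta gene, had 0.357 and 0.462 FPKM in control, 14.6 and 16.5 in LPS, and 6.42 and 4.77 in Glul_LPS. It was highest in LPS without overlap, rose by 3.55 (adjusted p = 2.29e-06) with LPS, and fell by 1.33 from LPS to Glul_LPS (SE 0.13, adjusted p = 0.0207). The interferon alpha receptor genes Ifnar1 and Ifnar2 rose by 0.39 and 0.48 with LPS, and the interferon gamma receptor genes Ifngr1 and Ifngr2 fell by 2.50 and 0.68, or relative to the median gene by 1.99 and 0.17. None of these 4 receptor genes passed between LPS and Glul_LPS in limma.

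Of the 7 JAK-STAT genes, which carry the signal from the receptor, 6 rose with LPS. Jak2 rose by 2.88, Stat2 by 2.67, Irf9 by 1.07, Stat3 by 0.76 and Jak1 by 0.28. From LPS to Glul_LPS Stat2 was at −0.01 (adjusted p = 0.935) and Irf9 at −0.19 (0.165), and neither passed. Among interferon regulatory factors 5 of 6 tested rose and 1 fell with LPS. Irf7, which amplifies interferon production, had 71.4 and 66.9 FPKM in control, 256 and 247 in LPS, and 229 and 252 in Glul_LPS. The treated groups overlapped, with a change of 1.85 with LPS and −0.07 from LPS to Glul_LPS (adjusted p = 0.649). Irf1 rose by 3.21 with LPS and Irf5 by 0.57, and Irf3, named after its value was seen like the other fallen genes below, fell by 0.86, or by 0.34 relative to the median gene. Irf8 rose by 2.001 with LPS and fell by 0.70 from LPS to Glul_LPS (adjusted p = 0.0457). Irf8 is also one of 4 listed markers of plasmacytoid dendritic cells. Of the others, Siglech was at 0.085 FPKM or less in every library, Ccr9 had 0.0678 and 0.0450 FPKM in control, 0.188 and 0.256 in LPS, and 0.200 and 0.218 in Glul_LPS, and Tcf4 had 3.37 and 3.45, 7.35 and 6.52, and 6.30 and 7.38. The last 2 overlapped between LPS and Glul_LPS, and the part of such cells in the values of Irf8 was not tested.

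Of the 7 brakes, which include the member Usp18, 5 rose and 2 fell with LPS. Socs1, which inhibits JAK kinases, rose by 7.04, Socs3 by 4.96 and the phosphatase gene Ptpn1 by 1.06. The phosphatase gene Ptpn6 fell by 0.70, or by 0.19 relative to the median gene, and Pias1, a SUMO ligase gene, by 0.53, although Pias1 did not pass relative to the median gene (adjusted p = 0.921). Among the 13 sensors and adaptors 8 rose and 3 fell. The RNA sensor Ifih1 rose by 4.35, the nucleic acid sensor Zbp1 by 3.26, Dhx58, a regulator of RNA sensors, by 2.25, and the kinase Ikbke by 0.91. The adaptor genes Mavs and Ticam2 fell by 1.94 and 1.24, and Tlr4, the LPS receptor gene, by 0.79. Relative to the median gene they were at −1.42, −0.72 and −0.27. From LPS to Glul_LPS, 1 gene of this list passed: Tmem173, the adaptor STING, fell by 0.43 (adjusted p = 0.0457). Thus 3 of the 38 tested pathway genes fell between LPS and Glul_LPS, where 0.556% of all genes fell. With voom that count was 6 of 33, in either direction, where 2.91% of all genes were higher and 2.81% lower. The count was lower in each fit without a library, in which fewer genes of the whole table passed too.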

How the data were processed

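RNA of mouse bone marrow-derived macrophages was sequenced on an Illumina HiSeq system after NEBNext Ultra library preparation, per the labels' protocols. HISAT2 2.1.0, HTSeq 0.6.0, CASAVA, DESeq2 and the build GRCm38 are named in the submitters' processing notes. Gene annotation and library strand are not given in the sources used. The deposited values are FPKM per gene, made by the authors. Columns were matched to samples by name, and 6 columns of no listed sample were not used. Members and lists were chosen with earlier results of these data known.

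Log2(FPKM + 1) was fitted with limma 3.58.1 (R 4.3.3, empirical Bayes with trend) on all 3 groups together, keeping genes that reached 1 FPKM in 2 or more of the 6 libraries. P-values were adjusted by Benjamini-Hochberg over all 10962 genes tested, with a threshold of 0.05. Whole fragments were recovered from FPKM and GENCODE M21 exon lengths (24703 of 24752 gene IDs matched) for 22655 genes within a tolerance of 0.01 in all libraries, 38 members among them, and were used for depth and for limma's voom. A fragment on 1 kb of exon was worth 0.0535 to 0.0639 FPKM, which sets the precision of low genes. Alternatives were a pseudocount of 0.1, no filter, TPM, quantile normalization, median centring, the library letter as a block, voom, and leaving out each library.

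Values are given in every library for the 5 members that changed most and the 5 that changed least with LPS, the 3 lowest and 3 highest from LPS to Glul_LPS and the ISG15 system. Of each pathway list, up to 4 genes with the highest mean FPKM and the main interferon factors are named, and those that passed from LPS to Glul_LPS. Promoters come from RefSeq. Values of 1 listed pathway gene are not reported here.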

Additional observations from a re-analysis of the deposited data

How the results depend on the processing

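All alternatives were planned. With LPS against control, 41 to 43 members rose in the settings that test 43, the exceptions being Lgals3bp and Bst2, 42 of 44 rose with no filter and 38 of 38 with voom. Of all 10962 genes tested, 1879 rose as deposited, 3044 after quantile normalization and 3788 after median centring. The members' median moved from 2.82 to 3.12 with a pseudocount of 0.1, 3.02 as TPM, 3.10 after quantile normalization and 3.34 after median centring. Over members and settings, 549 values kept direction and call and 5 lost the call. Against control, the Glul_LPS median moved from 2.67 to 2.90 with a pseudocount of 0.1, 2.85 as TPM, 2.96 after quantile normalization, 3.16 after median centring and 2.85 with voom. The single lower member there, Ifi27l2a, left a count of 0 after median centring (where it was at 0.30) and with voom, and of 0 to 1 when each library was left out. Lgals3bp was at −0.054 after quantile normalization and at 0.56 after median centring.

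From LPS to Glul_LPS, voom called 1 member higher and 10 lower, no filter called 0 lower, and leaving out libraries gave 0 to 1. The pathway count of 3 became 1 with a pseudocount of 0.1, 0 with no filter, 1 after quantile normalization, 6 with voom and 0 to 2 on leaving out libraries. Over the whole table, 121 genes passed in this comparison, 548 with voom and 9 with no filter. Fewer than 121 passed with any library left out, so low counts in those fits are not particular to these genes. Sign changes were confined to small values: after quantile normalization Ifit1 was at 0.025 and Znfx1 at 0.00048. On leaving out libraries the range was −0.00185 to 0.0796 for Ube2l6, −0.0962 to 0.0290 for Usp18, −0.0916 to 0.0669 for Znfx1, −0.0506 to 0.141 for Uba7, −0.0170 to 0.132 for Tor3a, −0.18 to 0.15 for Ddx60 and −0.155 to 0.0148 for Herc6. Where an alternative moved a value, the cause was not tested, beyond fewer libraries or other genes entering the fit.

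The B minus C differences of the groups correlated at −0.0215, −0.0004 and −0.0474 over genes. Differences of single libraries also hold counting error, so these values do not tell whether the letters pair the groups. With the letter as a replicate block, members' counts were 43 higher in LPS, 1 lower from LPS to Glul_LPS, and 41 higher and 1 lower in Glul_LPS against control, while the whole table gave 87 calls from LPS to Glul_LPS. With 2 libraries a group, differences of the size seen for most members between LPS and Glul_LPS had intervals that span 0.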
